A study of Sus scrofa with 12 samples.

Results

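The Notch ligands, receptors and targets measured here were 10 genes chosen by name, and all 10 were found among the 35682 pig gene identifiers of the count files. They were the 4 receptors NOTCH1, NOTCH2, NOTCH3 and NOTCH4, the 3 ligands JAG1, JAG2 and DLL4, and the 3 target genes HES1, HEY1 and HEY2. Their values were followed through the hearts of 6 female Yorkshire pigs, 10 to 12 weeks old at the start of the experiment, named by the animal numbers 1022, 1322, 1323, 1623, 1922 and 3622. Each animal gave 1 library of the border zone, the myocardium next to the infarct, and 1 of the remote zone, the posterior wall. The regions are those of the sample titles, which add the word Mid for both. The extraction text deposited with the samples speaks of border zone tissue for all 12 libraries, those titled remote included, and the 2 libraries of animal 3622 are numbered in the reverse order of those of the other animals. Every animal had its left anterior descending coronary artery closed by a balloon for 60 min and then reperfused. From day 9 after this injury all received immunosuppression, with a daily dose of 0.75 mg/kg for tacrolimus, 500 mg for mycophenolate mofetil and 20 mg for prednisolone. At thoracotomy on day 14 the heart surface was covered either with vascular organoids, sheets of human endothelial progenitor cells and smooth muscle cells held by fibrin sealant, or with the fibrin sealant alone, and the hearts were taken 28 days later. There were no uninjured animals among these libraries, so the remote zone was the only reference, and both regions came from immunosuppressed animals. Sample labels did not tie an animal to the organoid or the control treatment. Each region therefore mixed both treatments, no comparison of treatments was made, and the spread within a region includes any effect of treatment. RNA of human organoid cells, where present, cannot be told apart from pig RNA in counts on pig genes.

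Notch is a signal between touching cells. A ligand of the Jagged or Delta-like family on one cell binds a Notch receptor on its neighbour, the receptor is cut by ADAM proteases and then by gamma-secretase, and its freed inner domain enters the nucleus and joins the DNA-binding protein RBPJ (also called CSL) and a Mastermind coactivator to switch on HES and HEY genes. In blood vessels NOTCH1, NOTCH4 and DLL4 are known from endothelium, where they guide sprouting and arterial identity. NOTCH3 is known from smooth muscle cells and pericytes, and JAG1 on endothelium signals to these mural cells. HES1, HEY1 and HEY2 encode transcriptional repressors, and HEY2 is also known from ventricular cardiomyocytes.

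Upstream regions of the targets HES1, HEY2 and HEYL, a related target from the wider pathway list, are shown as examples, chosen because they hold the DNA letters that RBPJ is known to bind, so that holding them is no finding. Sequences are from the RefSeq pig genome of the build Sscrofa11.1, the build of the files, and are printed along the strand of the gene. Capitals mark TGGGAA, the core read by RBPJ, or the same core on the other strand, TTCCCA. For HEY2 (chr1:37231322-37231571, minus strand) and HEYL (chr6:95459598-95459847, minus strand), the 250 bases before the RefSeq gene start are given. The RefSeq model of HES1 holds the coding part alone, so 100 bases around the matches in the 400 bases before its first annotated base are given instead (chr13:131135605-131135704, plus strand).
HES1: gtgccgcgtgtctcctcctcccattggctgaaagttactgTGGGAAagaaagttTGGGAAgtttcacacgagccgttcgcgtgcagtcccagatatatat
HEY2: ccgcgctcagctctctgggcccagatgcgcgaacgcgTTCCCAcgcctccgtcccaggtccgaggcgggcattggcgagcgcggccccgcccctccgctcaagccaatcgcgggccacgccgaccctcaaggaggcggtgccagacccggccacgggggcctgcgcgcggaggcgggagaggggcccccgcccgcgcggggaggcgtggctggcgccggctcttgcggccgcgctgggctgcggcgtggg
HEYL: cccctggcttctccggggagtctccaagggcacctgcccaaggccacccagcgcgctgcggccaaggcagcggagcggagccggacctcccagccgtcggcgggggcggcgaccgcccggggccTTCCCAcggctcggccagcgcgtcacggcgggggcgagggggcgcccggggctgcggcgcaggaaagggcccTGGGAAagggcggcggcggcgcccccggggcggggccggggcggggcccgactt
HES1 held 2 cores in the same direction with 8 bases between them, at 305 and 319 bases before its first annotated base. HEY2 held 1 core at 207 bases before its start, and HEYL held 2 at 120 and 48 bases. In each of the HES1, HEY2 and HEYL sequences 1 core was part of the longer match GTGGGAA. Over the 250 bases before the gene start, TGGGAA occurred on either strand in 24.6% of 20667 promoters of protein-coding genes, and GTGGGAA in 5.29%. These shares do not apply to HES1, which was searched over 400 bases. The windows of HEY2 and HEYL were rich in G and C, with 79.2% of the bases for HEY2 and 81.6% for HEYL.

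Read totals on genes spanned 15130210 to 30526110 for border zone libraries, with 20091415 to 31618680 for those of the remote zone, and every member had at least 76 counts in each library. Values are CPM, the count relative to the size of the library, after TMM scaling, and the comparison of regions is a fit across all 13844 genes that passed a filter on low counts, by edgeR's quasi-likelihood test with region as the only term and Benjamini-Hochberg adjustment. Of all genes tested, 2.07% had an adjusted p under 0.05, and the median log2 fold change (border over remote) was 0.04. Libraries differed in make-up. The border zone library of animal 1022 had a summed CPM of 84363 over 15 fibroblast and matrix markers, against 4410 to 14391 in the other border zone libraries, and 13174 over 12 cardiomyocyte markers, against 45097 to 69582. The border zone library of animal 3622 had the lowest total and listed 28024 genes with at least 1 count, against 16932 to 20148 in the other libraries. The cardiomyocyte markers were at 58759 to 98148 CPM in the remote zone, and their mean was lower in the border zone of 6 of 6 animals, while the mean of the matrix markers was higher in 6 of 6, animal 3622 included. No marker gene was at 0 in every library.

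Of the 10 members, 10 passed the filter and 0 had an adjusted p under 0.05 by edgeR's quasi-likelihood test. At an unadjusted p under 0.05 there were 5 of the 10, NOTCH1, NOTCH2, NOTCH3, JAG1 and HES1, all higher in the border zone, against 24.7% of all genes tested. By the Wald test of DESeq2, 1 member passed, NOTCH2, against 9.84% of the 17110 genes with an adjusted p. The median log2 fold change of the members was 0.36, and 6 of them were above 0, against 53.3% of all genes tested. With the animal as a block in the edgeR fit, again 0 of the 10 passed, against 0.296% of all genes. At an unadjusted p under 0.05 there was then 1, NOTCH2, against 29.4% of all genes, and the median of the members was 0.35.

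**Figure D1:**
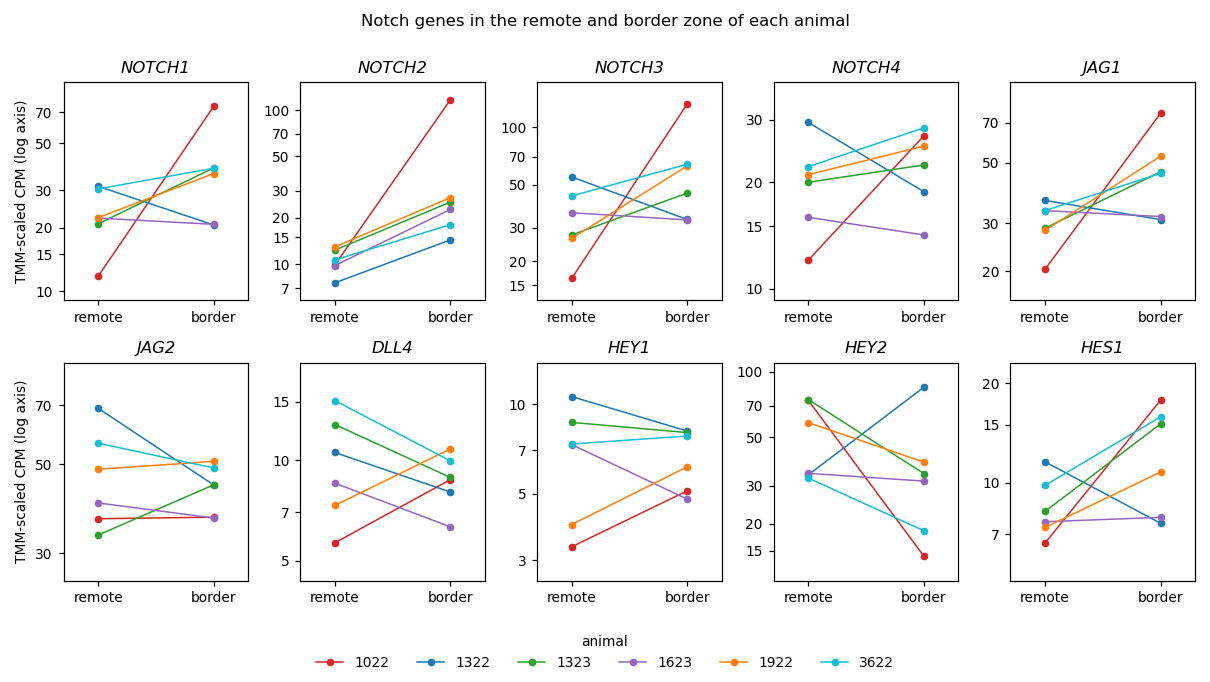
TMM-scaled CPM (log axis) of each Notch gene in the remote and the border zone, with 1 line for each of the 6 animals. NOTCH2 climbs in every animal and HEY2 climbs in animal 1322 alone, while JAG2, DLL4 and HEY1 cross without a common direction.

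NOTCH2, a receptor with broad expression that includes smooth muscle, was the member with the largest difference between regions. In the border zone its CPM was 116.4 in animal 1022, 14.4 in 1322, 25.3 in 1323, 22.7 in 1623, 27.1 in 1922 and 18.1 in 3622. In the remote zone it was 9.94, 7.61, 12.4, 9.84, 13.0 and 10.7 in the same order. All 6 border zone values lay above all 6 remote zone values, a separation that 1.99% of all genes tested showed, and NOTCH2 was the only member with it. It was also the only member with a higher border zone value in 6 of 6 animals, as 11.7% of all genes were. The log2 fold change was 1.82 (standard error 0.46, 95% interval 0.84 to 2.80, edgeR adjusted p = 0.0509), or 3.53-fold. With the animal as a block it was 1.38 (interval 0.57 to 2.19, adjusted p = 0.0814), and by DESeq2 the adjusted p was 0.00327. The border zone of animal 1022 stood far above the rest. Without that animal the log2 fold change was 1.01 with an edgeR adjusted p = 0.0380, and without animal 1322 it was 1.90 with an adjusted p = 0.0499, while without any of the other animals the adjusted p was above the threshold. In RefSeq an exon of LOC102160224 overlaps NOTCH2, and nondirectional reads within such an overlap cannot be told apart. The counts used here were made on Ensembl genes. NOTCH2 (ENSSSCG00000006709) lies at chr4:100951522-101152348.

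NOTCH3, the receptor of mural cells, ranged from 32.9 to 131.5 CPM in the border zone (median 54.0), against 16.3 to 55.03 in the remote zone (median 31.6). The highest border zone value was that of animal 1022 and the highest remote zone value that of animal 1322, and the regions overlapped. The log2 fold change was 0.85 (standard error 0.36, 95% interval 0.08 to 1.63, edgeR adjusted p = 0.168), and 0.33 without animal 1022 (adjusted p = 0.569). With the animal as a block it was 0.74, and the interval included 0 (-0.25 to 1.73, edgeR adjusted p = 0.276). Within animals the border zone was higher in 4 of 6, by 3.01 on the log2 scale in animal 1022 and by 0.55 to 1.25 in 1323, 1922 and 3622, and was at -0.73 in 1322 and -0.12 in 1623. NOTCH3 (ENSSSCG00000025176) lies at chr2:62364507-62402348, where RefSeq has a second gene, LOC100628051, with overlapping exon bases.

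NOTCH1, a receptor known from endothelium, followed the same animals. Its CPM was 20.6 to 74.7 in the border zone (median 37.1) and 11.8 to 31.3 in the remote zone (median 22.2), and 4 of the 6 border zone values lay above the highest remote zone value. The log2 fold change was 0.72 (standard error 0.31, 95% interval 0.04 to 1.39, edgeR adjusted p = 0.180), and 0.27 without animal 1022 (adjusted p = 0.596). With the animal as a block it was 0.61, and the interval included 0 (-0.25 to 1.47, edgeR adjusted p = 0.298). Within animals the border zone was at -0.60 in animal 1322 and -0.10 in 1623. Its gene, ENSSSCG00000038509, is on a scaffold without a chromosome in this build. NOTCH4 (ENSSSCG00000001440, chr7:24231293-24256281), also known from endothelium, ranged from 14.2 to 28.5 CPM in the border zone and from 12.0 to 29.5 in the remote zone. None of its border zone values lay outside the remote zone range, and the log2 fold change was 0.18 with a 95% interval from -0.30 to 0.65 (edgeR adjusted p = 0.659). It was 0.0041 without animal 1022 and 0.35 without 1322. The interval reached 1.57-fold at its upper end. In RefSeq the exons of LOC102157581 and NOTCH4 overlap.

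Among the ligands, JAG1 differed most. JAG1 (ENSSSCG00000007067, chr17:19591248-19629659) was at 30.9 to 75.7 CPM in the border zone (median 45.9) and at 20.4 to 36.3 in the remote zone (median 31.0). As for NOTCH1, 4 border zone values were above the remote zone range, and the values of animals 1322 and 1623 were within it. The log2 fold change was 0.65 (standard error 0.22, 95% interval 0.18 to 1.12, edgeR adjusted p = 0.110, DESeq2 adjusted p = 0.0885), and 0.37 without animal 1022 (edgeR adjusted p = 0.309). With the animal as a block it was 0.60, and the interval included 0 (-0.0058 to 1.20, edgeR adjusted p = 0.173). JAG2 (ENSSSCG00000002555, on a scaffold without a chromosome), the second Jagged ligand, was at 36.7 to 50.8 CPM in the border zone, against 33.3 to 68.8 in the remote zone, with medians of 44.4 and 44.3. Its log2 fold change was -0.11 (95% interval -0.51 to 0.28, edgeR adjusted p = 0.741). DLL4 (ENSSSCG00000004755, chr1:130376720-130386411), the Delta-like ligand of sprouting tips and arteries, was at 6.32 to 10.8 CPM in the border zone, against 5.66 to 15.1 in the remote zone. It was higher in the border zone in 2 of 6 animals, with a log2 fold change of -0.18 (95% interval -0.69 to 0.32, edgeR adjusted p = 0.660), and between -0.33 and -0.079 with 1 animal left out. Differences between the ligands in their fold change were not tested.

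**Figure D2:**
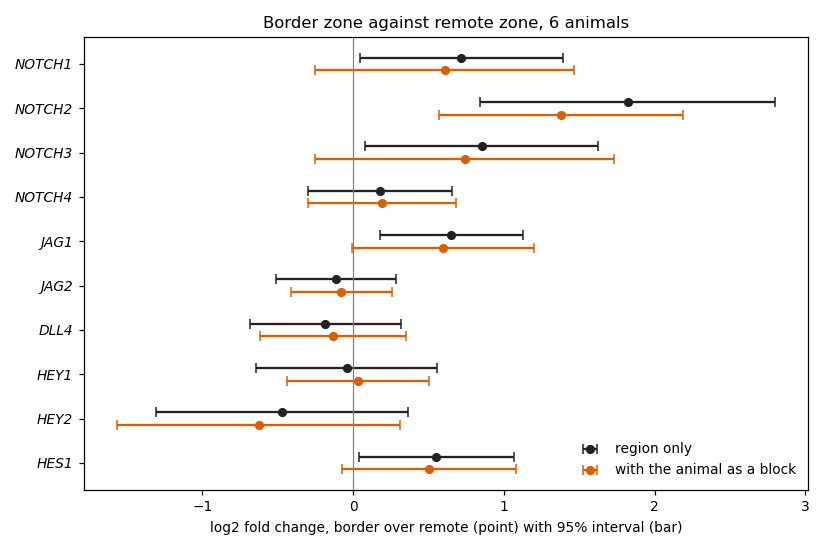
Log2 fold change (border over remote) of each Notch gene with its 95% interval, from the edgeR fit with region only and from the fit with the animal as a block. The intervals of NOTCH2 lie above 0 in both fits, and those of NOTCH1, NOTCH3, JAG1 and HES1 lie above 0 in the fit with region only.

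Of the target genes, 0 passed the test, and differences between them in their fold change were not tested. HES1 (ENSSSCG00000031356, chr13:131135970-131137865), a general read-out of Notch that other signals also drive, was at 7.55 to 17.8 CPM in the border zone (median 12.9) and 6.57 to 11.6 in the remote zone (median 7.91). It was higher in the border zone in 5 of 6 animals, as 28.8% of all genes were in at least 5, and the exception was animal 1322 with -0.61 on the log2 scale. Its log2 fold change was 0.55 (standard error 0.24, 95% interval 0.04 to 1.07, edgeR adjusted p = 0.178), and 0.35 without animal 1022 (adjusted p = 0.503). With the animal as a block it was 0.50, and the interval included 0 (-0.07 to 1.08, edgeR adjusted p = 0.214). HEY1 (ENSSSCG00000006159, chr4:56859640-56863807), an endothelial target, was at 4.81 to 8.13 CPM in the border zone, against 3.33 to 10.6 in the remote zone. The border zone was higher in 3 animals and lower in 3, and the log2 fold change was -0.04 (95% interval -0.64 to 0.56, edgeR adjusted p = 0.943).

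HEY2 (ENSSSCG00000004223, chr1:37219887-37231321) had the most negative log2 fold change of the members. Its border zone CPM was 14.2 in animal 1022, 85.0 in 1322, 34.1 in 1323, 31.5 in 1623, 38.5 in 1922 and 18.6 in 3622. Its remote zone CPM was 74.0, 33.6, 74.6, 34.1, 58.5 and 32.5 in the same order. The border zone was lower in every animal except 1322, from -2.37 on the log2 scale in 1022 to -0.12 in 1623, and was at 1.34 in 1322. The log2 fold change was -0.47 (standard error 0.39, 95% interval -1.31 to 0.37, edgeR adjusted p = 0.474), so the regions did not differ beyond the spread between animals. It was -1.004 without animal 1322 (adjusted p = 0.0909) and -0.17 without 1022 (adjusted p = 0.880). Across the 12 libraries HEY2 ran opposite to NOTCH3, with Pearson's r of -0.84 and Spearman's rho of -0.68, and r was -0.71 without animal 1022. Within the border zone libraries r was -0.78 and within the remote zone libraries -0.87. With NOTCH1, HES1 and JAG1 the r of HEY2 was -0.82, -0.81 and -0.79 (-0.66, -0.67 and -0.59 without animal 1022). The libraries share animals, region and tissue make-up, so these are descriptions. Of the means of the marker lists, HEY2 had r of -0.81 with the lymphocyte list (rho -0.80, and r of -0.82 without animal 1022) and of -0.79 with the macrophage list (rho -0.87, and r of -0.70). With the smooth muscle and pericyte list r was -0.75 (rho -0.54, and r of -0.48 without 1022), and with the cardiomyocyte list 0.70 (rho 0.52, and r of 0.59). It was -0.72 with the fibroblast and matrix list, -0.68 with the cell division list and -0.65 with the Schwann cell list (-0.46, -0.41 and -0.46 without 1022).

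The number of members that were higher in the border zone varied by animal. In the border zone 9 of the 10 members were higher in animal 1022, 9 in 1922, 7 in 1323 and 7 in 3622, but 2 in 1322 and 2 in 1623. The share of all genes that were higher in the border zone was 48.7%, 46.7%, 50.8%, 58.7%, 52.4% and 51.7% in these animals. In animals 1322 and 1623, NOTCH2 was still higher, by 0.915 and 1.198 on the log2 scale, while NOTCH1, NOTCH3, NOTCH4 and JAG1 were between -0.73 and -0.07. NOTCH1, NOTCH3 and JAG1 varied together from library to library, with r of 0.96 to 0.97 among them across the 12 libraries and 0.88 to 0.89 without animal 1022. HES1 correlated with NOTCH1 with r of 0.92, and 0.93 without animal 1022. NOTCH2 correlated with NOTCH1 with r of 0.74, but of 0.33 without animal 1022, 0.85 within the border zone and -0.24 within the remote zone.

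**Figure D3:**
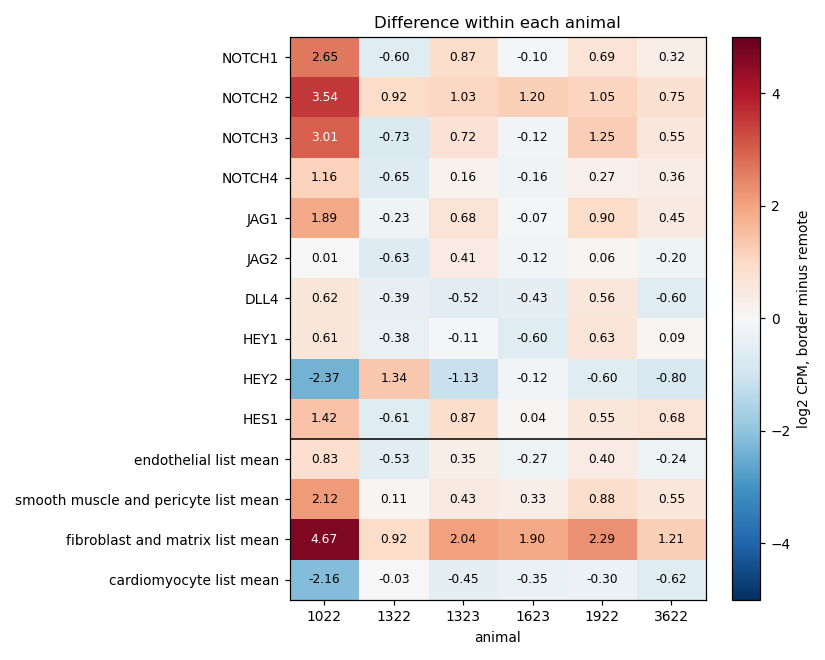
Log2 CPM in the border zone minus that in the remote zone for each Notch gene and for the mean of 4 lists of cell type markers, in each of the 6 animals. Red is higher in the border zone. Animals 1322 and 1623 hold negative values for most Notch genes and for the endothelial list. In animal 3622 the endothelial list is negative too, although 7 of the 10 Notch genes are higher there. NOTCH2 is positive in all 6 animals, as are the means for fibroblasts with matrix and for smooth muscle with pericytes.

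Levels of cell type markers were compared in the same libraries. In bulk tissue, fewer cells of a type and less RNA per cell cannot be told apart. In 3 of 6 animals the border zone had the higher mean of 14 endothelial markers, by 0.83 in animal 1022, 0.40 in 1922 and 0.35 in 1323, and was at -0.53 in 1322, -0.27 in 1623 and -0.24 in 3622. Their summed CPM was 515.0 to 771.4 in the border zone, against 399.2 to 923.1 in the remote zone, and 0 of the 14 passed the edgeR test, 0 at an unadjusted p under 0.05 and 0 by DESeq2. The mean of 13 smooth muscle and pericyte markers was higher in 6 of 6 animals, with a summed CPM of 1047 to 3614 against 743.3 to 1159. Of these, 0 passed by edgeR, 10 were at an unadjusted p under 0.05 and 7 passed by DESeq2. The log2 fold change was above 0 for 9 of the 13, and RGS5, KCNJ8 and ABCC9 were at -0.22, -0.32 and -0.15. SMTN, the smoothelin gene, was at -0.57, was lower at the border in all 6 animals and is among the 10. These 4 genes were named after their values were seen. Of 15 fibroblast and matrix markers 13 were higher at an adjusted p under 0.05 by edgeR, and 1 with the animal as a block, with a summed CPM of 4410 to 84363 against 1487 to 3681. Of 12 cardiomyocyte markers 0 passed by edgeR, 4 were at an unadjusted p under 0.05, all lower in the border zone, and 2 were lower by DESeq2. The median log2 fold changes of the other lists were 1.44 for 14 macrophage markers, 0.62 for 6 lymphocyte markers, 1.87 for 4 cell division genes, 0.12 for 5 lymphatic markers, -0.11 for 2 red cell genes and 0.78 for 4 Schwann cell genes, and 0 of their genes passed by edgeR. At an unadjusted p under 0.05 there were 13, 2, 4, 0, 0 and 0 of these genes, and by DESeq2 4, 0, 2, 0, 0 and 0. Of the 4 cell division genes 3 were above 0, and AURKB, a mitotic kinase, was at -0.56 and lower in all 6 animals (also named after its values were seen). The part of cell make-up in the differences of the Notch genes was not tested.

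Members were also set against the markers within each animal. Measured as the log2 difference between regions minus the mean difference of the endothelial list, NOTCH2 was above 0 in 6 of 6 animals, from 0.66 to 2.71, and JAG1 in 6 of 6, from 0.20 to 1.06. NOTCH1, NOTCH3 and HES1 were above 0 in 5 of 6 animals each, with medians of 0.41, 0.58 and 0.42. NOTCH4 lay close to the endothelial list, at a median of -0.01 and between -0.19 and 0.61. JAG2 had a median of -0.03 and DLL4 of -0.18 on the same scale. Minus the mean of the smooth muscle and pericyte list, NOTCH2 was again above 0 in 6 of 6 animals, from 0.18 to 1.42, NOTCH3 in 3 of 6, NOTCH1, JAG1 and HES1 in 2 of 6 each (JAG1 at a median of -0.17) and HEY2 in 1, while NOTCH4, JAG2, DLL4 and HEY1 were below 0 in 6 of 6. Minus the mean of the cardiomyocyte list, NOTCH2 was above 0 in 6 of 6 animals, NOTCH1, NOTCH3, NOTCH4, JAG1, JAG2 and HES1 in 5, HEY1 in 4, DLL4 in 3 and HEY2 in 2. Minus the mean of the fibroblast and matrix list, every member except HEY2 was below 0 in 6 of 6 animals, NOTCH2 at a median of -0.86, and HEY2 was above 0 in animal 1322 alone. That list mean itself rose by 0.92 to 4.67 in the 6 animals, against -0.04 to 0.14 for the median of all genes. A gene at the median of all genes is thus also below 0 on this scale in each animal. Shares of all genes on these scales were not computed, so the counts have no background. Across the 12 libraries NOTCH2 correlated with the fibroblast and matrix mean with r of 0.95 (rho 0.87, and r of 0.91 without animal 1022) and with the smooth muscle and pericyte mean with r of 0.91 (0.85 without 1022). With the endothelial mean its r was 0.11, and -0.35 without 1022, and with the cardiomyocyte mean it was -0.93 (-0.78 without 1022). NOTCH3 had r of 0.89 with the smooth muscle and pericyte mean (0.61 without 1022) and of 0.74 with the endothelial mean (0.74 without 1022). NOTCH4 and JAG2 correlated with the endothelial mean with r of 0.81 and 0.78 (0.70 and 0.91 without 1022).

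To compare the receptors and ligands with each other, CPM was divided by exon length in kilobases from RefSeq. By this level NOTCH3 was the highest receptor in each of the 12 libraries, with a median share of the 4 receptors of 42.5% in the border zone (37.8% to 45.2%) and 39.2% in the remote zone (33.6% to 45.2%). In the border zone NOTCH4 and NOTCH1 followed with medians of 22.2% and 21.9%, which did not differ beyond their spread, and NOTCH2 was lowest with 12.0%. In 6 of 6 animals NOTCH2 had the larger share in the border zone, the median difference being 4.83 percentage points (SD 4.0), with a remote zone median of 8.41%. NOTCH4's share was higher in 0 of 6, by a median of -5.95 points (SD 7.20), while its own CPM was higher in 4 of 6, since a share also moves with the levels of the other receptors. The level of NOTCH2 was 1.05 to 8.49 CPM per kb in the border zone, against 0.555 to 0.948 in the remote zone.

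Of the ligands, JAG2 had the highest level per kb in every library except the border zone of animal 1022, where JAG1 had 55.6% of the sum of the 3 ligands and JAG2 33.6%. The median share of JAG1 was 38.2% in the border zone and 27.5% in the remote zone, and 6 of 6 animals had the larger share in the border zone, with a median difference of 9.76 points (SD 9.31). This share too moves with the other ligands. The CPM of JAG1 itself was lower in the border zone of animals 1322 and 1623, by -0.23 and -0.07 on the log2 scale. JAG2 had medians of 48.4% and 57.1%, and DLL4 of 13.2% and 13.7%. Of HEY1 and HEY2 together, HEY2 made up a median of 78.5% in the border zone (63.0% to 88.2%) and 81.5% in the remote zone (69.4% to 94.1%). HES1 was left out of this scale, since RefSeq gives its coding length alone.

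**Figure D4:**
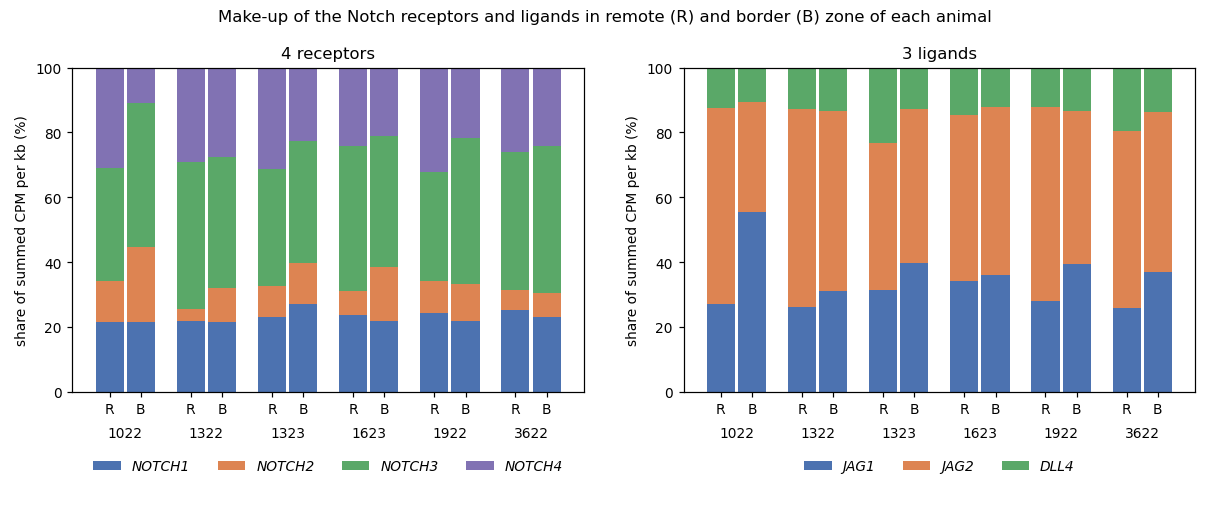
Share (%) of each receptor in the summed CPM per kb of the 4 receptors, and of each ligand in that of the 3 ligands, in the remote (R) and border (B) zone of each of the 6 animals. NOTCH2 takes a larger share in each border zone bar than in its remote zone partner, and so does JAG1. A share also moves with the levels of the other genes in the sum.

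The genes whose log2 CPM followed each member most closely over the 12 libraries, by Pearson's r, are given as descriptions, since each animal gave a library of both regions. NOTCH2 was followed by TGFBR1, the type I receptor of transforming growth factor beta (r of 0.99, and 0.96 without animal 1022), MAPK8IP1 (0.98) and NHSL3 (0.98). NOTCH3 was followed by PDGFRB, the platelet-derived growth factor receptor of mural cells and fibroblasts (0.97, rho 0.97), NOTCH1 (0.97) and MYH11, the smooth muscle myosin heavy chain (0.96). JAG1 was followed by MYH11 (0.97), NOTCH1 (0.96) and NOTCH3 (0.96), and NOTCH1 by HDAC7, a histone deacetylase of endothelium (0.97), NOTCH3 (0.97) and JAG1 (0.96). For NOTCH4 they were DOCK6 (0.92), SOX13 (0.91) and AVPR1A (0.89), for JAG2 NHERF2 (0.90), KANK3 (0.89) and NOP53 (0.89), and for DLL4 SRSF7 (0.85), TMEM139 (0.84) and OIP5 (0.83). For HES1 they were ZNF467 (0.96), CACHD1 (0.95) and PAN3 (0.94), for HEY1 FAM162B (0.91), AGBL5 (0.85) and SARNP (0.85), and for HEY2 C7orf25 (0.96), GLUD1, a mitochondrial glutamate dehydrogenase (0.94), and AKAP1, an anchoring protein of mitochondria (0.93). Under Spearman's rho instead, 2 of the 3 genes of NOTCH2, 1 of those of DLL4 and 1 of those of HEY1 stayed among the 3 highest, and 0 for each of the other members. Without animal 1022, 7 of the 30 genes, 1 each for 7 members, stayed among the 3 highest, and NOTCH1, NOTCH3 and JAG1 ranked from 16 to 27 in each other's lists.

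The wider pathway was followed through a list of 78 other genes, of which 75 had an identifier and 68 passed the filter. Of the 68, 3 were higher in the border zone at an adjusted p under 0.05 by edgeR's quasi-likelihood test, HEYL, NUMBL and APH1B, and 0 were lower, against 2.07% of all genes tested. At an unadjusted p under 0.05 there were 23 of the 68, against 24.7% of all genes. DESeq2 gave an adjusted p for 70 genes of the list, of which 9 passed, all higher, against 9.84% of all genes. The median log2 fold change was 0.34, and 54 of the 68 were above 0, against 53.3% of all genes. With the animal as a block in edgeR 0 of the 68 passed, 24 were at an unadjusted p under 0.05, against 29.4% of all genes, and the median was 0.33. With the block in DESeq2 11 of the 70 passed, 8 higher and 3 lower, against 16.0% of all genes. The 3 lower ones were CIR1 (adjusted p = 0.00653), EPN1 (adjusted p = 0.0135) and PSENEN (adjusted p = 0.0419).

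HEYL, a Notch target of smooth muscle cells and pericytes whose upstream region is printed above, rose by 1.64 on the log2 scale (standard error 0.32, edgeR adjusted p = 0.0277, and 0.0773 with the block). Values ran from 16.2 to 52.4 CPM in the border zone, against 4.63 to 11.6 in the remote zone, so the regions were apart. NUMBL, a relative of the Notch inhibitor NUMB, rose by 1.87 (standard error 0.45, edgeR adjusted p = 0.0489, and 0.0804 with the block), and its level was above that of the remote zone in 5 of 6 animals. Without animal 1022 its log2 fold change was 1.24 (edgeR adjusted p = 0.0762). APH1B, a subunit of the gamma-secretase that cuts the receptor, rose by 1.201 (standard error 0.286, edgeR adjusted p = 0.0489, and 0.0709 with the block), with 3.94 to 12.1 CPM in the border zone above 1.88 to 3.81 in the remote zone. The adjusted p of all 3 was above the threshold without animal 1323, 1623, 1922 or 3622, and that of NUMBL and APH1B also without 1022.

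**Figure D5:**
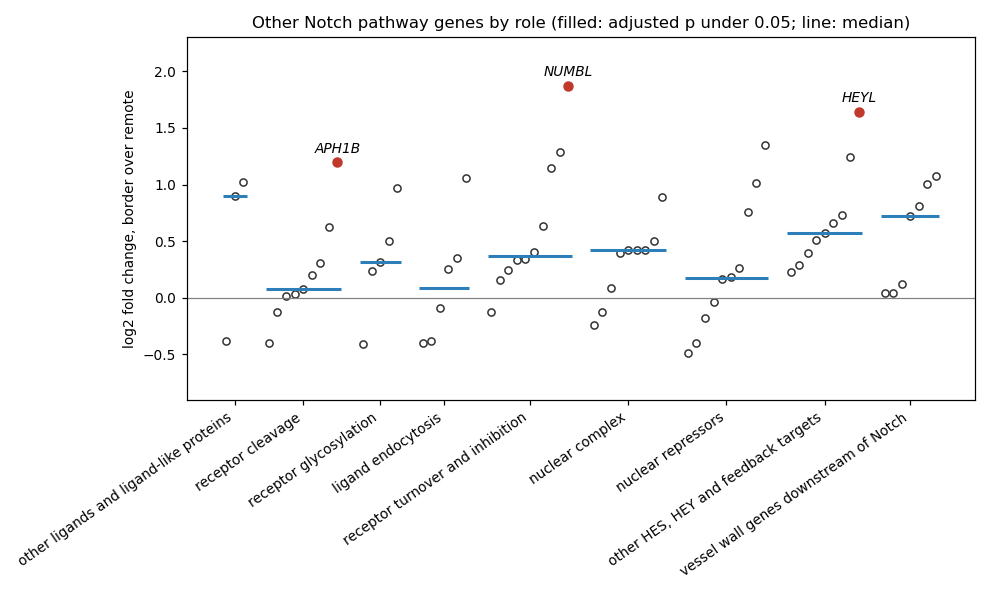
Log2 fold change (border over remote) of the 68 other Notch pathway genes tested, 1 point a gene, grouped by role with the median of each group as a line. The filled points are HEYL, NUMBL and APH1B, and the medians of the 9 groups lie above 0.

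By role, the values spread to both sides of 0, except among the other HES, HEY and feedback targets and the vessel wall genes. Among other ligands, DLL1, the Delta-like ligand of many tissues, was at 1.03 (edgeR adjusted p = 0.0671) and DLK1, a ligand-like protein, at -0.38, or at 0.44 without animal 1623 and -1.14 without 1922. Of the 9 genes of receptor cleavage the lowest was PSENEN, a gamma-secretase subunit, at -0.39, and the group median was 0.08. Of the sugar-adding enzymes of the receptor, POGLUT1 was at 0.97 (adjusted p = 0.0797) and the fringe enzyme RFNG at -0.41. Of the genes of ligand endocytosis, NEURL1, a ubiquitin ligase, was at 1.06 and the epsin EPN1 at -0.40. Of receptor turnover, 9 of 10 genes were above 0 and FBXW7, the ubiquitin ligase of the freed receptor domain, was at -0.13, or at 0.025 without animal 1022. In the nuclear complex MAML2, a Mastermind coactivator, was at 0.89, the acetyltransferase KAT2B at -0.24 and RBPJ, named outside the rule for its place in the upstream sequences, at 0.42 (edgeR adjusted p = 0.198). Of the nuclear repressors, TLE3 was at 1.35 (edgeR adjusted p = 0.0526) and CIR1 at -0.49. All 9 tested genes among the other HES, HEY and feedback targets were above 0, with HES2 lowest at 0.23, and all 7 of the vessel wall genes were, from UNC5B at 0.04 to PDGFRB at 1.08. Without animal 1022 PDGFRB was at 0.44, and with 1 animal left out UNC5B lay between -0.018 and 0.16. Genes of this list other than HEYL, NUMBL and APH1B did not pass in the edgeR fit. By DESeq2 the adjusted p was 0.0215 for DLL1, 0.0297 for POGLUT1 and 0.00804 for TLE3. ID2 (0.0105), DTX1 (0.0313) and DTX4 (0.0332), named outside the rule, also passed by DESeq2.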

How the data were processed

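From nondirectional libraries of poly(A)-enriched RNA, the authors aligned paired reads with STAR to the pig genome Sscrofa11.1, the build in the submitters' processing notes, and counted them on Ensembl genes with featureCounts. How reads with several possible genes were treated is not given in the sources used here. The deposited values are raw counts per gene, 1 file per library, without normalization, and 0 columns were of no sample. Region and animal number came from the sample titles. A symbol was found for 15623 of 35682 identifiers. The 10 members and all lists were chosen with earlier results of these data known.

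The fits were made in R 4.3.3 by edgeR 4.0.16 (limma 3.58.1), and by DESeq2 1.42.0 as an alternative. Tables were built in Python 3.11.15 (pandas 2.3.3; NumPy 2.4.6; SciPy 1.17.1) and figures with matplotlib 3.10.9. Genes were kept by filterByExpr on region, scaled by TMM and compared by the robust quasi-likelihood test of edgeR without a block, with Benjamini-Hochberg adjustment over all 13844 genes and a threshold of 0.05. A standard error was derived from F and the log2 fold change. Log2 CPM used a prior count of 2. Depth ranged from 15130210 to 31618680 counts per library. The scripts were tested on simulated data. PCR copies could not be separated from independent molecules.

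Libraries with the same number came from 1 animal and are thus paired. Deviations from the mean of the region, across genes, had a mean r of 0.35 within animals, with -0.03 in 1022 as the lowest and 0.57 in 1323 as the highest, and 4 pairs exceeded 0.1. No pair of libraries of the same region agreed within counting noise.

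Genes named are the 10 members, the pathway genes past the threshold with or without the block, those of the highest and lowest fold change in each role group, and the 3 genes most correlated with each member. Exon lengths, overlaps and upstream sequences came from the RefSeq annotation of the same build, with lengths as exon unions. Another upstream sequence is not reported here. The planned share of HES1 was dropped after its model was seen to hold the coding length alone, and the longest transcript length was added after seeing the data. Alternatives were a block for the animal, DESeq2 with and without it, DESeq2 size factors or library totals for scaling, no filter or a minimum of 10 counts per library, the removal of mitochondrial genes, the removal of 1 animal at a time, prior counts of 0.5 and 5, shares without length, medians of the marker lists and Spearman's rho. Organoid and control animals were not compared.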

Additional observations from a re-analysis of the deposited data

Results flagged for a closer look

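The border zone library of animal 1022 stood apart for NOTCH2. Its log2 CPM was 6.865, and the next highest border zone library, that of animal 1922, was at 4.764, so the gap was 0.699 of the range of the 6 libraries (116.4 against 27.1 CPM). This was 1 of 20 groups examined, the 10 members in both regions, and chance alone gives about 1 in 20. The same library had the highest summed CPM of fibroblast and matrix markers (84363) and the lowest of cardiomyocyte markers (13174). The part of these in the NOTCH2 value was not tested.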

How the results depend on the processing

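Over the settings tried, 178 of the 200 log2 fold changes of the members kept their direction and their side of the threshold, 9 passed only under the setting and 13 changed sign. Of 359 values of the other named pathway genes, 295 kept both, 40 lost the threshold, 16 gained it and 8 changed sign. NOTCH2 passed in 6 of 20 settings, over which its adjusted p ran from 0.00327 to 0.227, HEYL in 10, and NUMBL and APH1B in 5 each. The causes were not tested.

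With the animal as a replicate block, 41 genes passed in all, 34 of them shared with the 287 without it, 0 members and 0 pathway genes. DESeq2 called 1683 genes (1390 higher, 293 lower), 1 member and 9 pathway genes, and with the block 2672 genes (1383 higher, 1289 lower), 1 member and 11 pathway genes (8 higher, 3 lower). Library totals gave 1551, 4 (NOTCH2, NOTCH3, JAG1 and HES1) and 15, no filter gave 139 genes and 1 pathway gene, at least 10 counts in every library 149 and 1, DESeq2 size factors 1 pathway gene, and leaving out mitochondrial genes 1 pathway gene. With 1 animal left out, the counts were 0 to 519 genes, 0 to 1 members and 0 to 4 pathway genes, with 163 genes without animal 1022, 519 without 1322, 3 without 1323, 0 without 1623, 15 without 1922 and 0 without 3622. With the block as well they were 856, 51, 10, 0, 0 and 0 genes in this order, 0 to 1 members and 0 to 5 pathway genes.

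Library totals moved the median of all genes to 0.32 on the log2 scale, against 0.04 with TMM, and with it JAG2 to 0.20, DLL4 to 0.15, HEY1 to 0.26 and FBXW7 to 0.14, all of them at or under that median. HEY1 was at 0.033 with the block. With 1 animal left out, the range was -0.14 to 0.057 for HEY1, -0.26 to 0.00035 for JAG2, -1.14 to 0.44 for DLK1, -0.22 to 0.025 for FBXW7 and -0.018 to 0.16 for UNC5B. With the block as well, values of the other sign were 0.10 (without 1322), 0.018 (without 1323), 0.17 (without 1623) and 0.018 (without 3622) for HEY1, 0.019 for JAG2 (without 1322), -0.0073 for NOTCH4 and 0.017 for FBXW7 (both without 1022), and UNC5B was at -0.0037 with no filter. Without division by length, the median border zone share was 18.6% for NOTCH2, 37.8% for NOTCH3 and 9.20% for DLL4. Every member had at least 76 counts in each library, and counting error and the spread between animals were not separated.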
